A study of Mus musculus with 8 samples.

Results

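The genes described here are 10 genes of the response to endoplasmic reticulum (ER) and amino acid stress, chosen by name with earlier results of these data known. The members are Atf4, Ddit3, Xbp1, Trib3, Asns, Chac1, Sesn2, Hspa5, Dnajb9 and Herpud1. They are 10 of the 15794 genes listed in the 3 expression tables of the series, and each was found in all 3 tables. The group with the highest level of a member was between 1.02 times (Ddit3) and 1.52 times (Trib3) the group with the lowest. In the cytoplasmic rescue Herpud1 was the only member that passed the authors' test against the knockdown, and no member passed in the knockdown against the control or in the nuclear rescue against the knockdown. The call of Herpud1 was lost when q was adjusted over the cytoplasmic table alone.

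Unfolded protein in the ER is sensed by PERK, IRE1 and ATF6, which start the unfolded protein response. PERK is also a kinase of the translation factor eIF2, and the kinase GCN2 acts on the same factor when amino acids run short. Phosphorylated eIF2 lowers general translation and raises translation of the transcription factor ATF4, so that ATF4 protein can change without its mRNA. IRE1 splices the Xbp1 mRNA, which a gene-level value does not show. In neurons, which make large amounts of membrane and secreted protein, these pathways are known for a part in folding capacity and in survival under stress.

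The 4 groups of cultured neurons from mouse hippocampus had 2 RNA-seq samples each, 8 in all, and the authors combined the samples of a group into 1 value. Every group received AAV2/9 carrying the SynI promoter, which is active in neurons, at 9 days in vitro (DIV), then Accell siRNA from 10 DIV for 4 days, with RNA taken at 14 DIV. The control group had EGFP and non-targeting siRNA. The knockdown group had EGFP and siRNAs against Rbfox1 and Rbfox3, neuronal RNA-binding proteins that control splicing in the nucleus and mRNA level in the cytoplasm. The cytoplasmic rescue had the siRNAs and Flag-Rbfox1_C_siMt, and the nuclear rescue had the siRNAs and Flag-Rbfox1_N_siMt. Rbfox1 was at 25.7 FPKM (fragments per kilobase of transcript, scaled to library size) in the control, 1.94 in the knockdown, 16.1 in the cytoplasmic rescue and 38.2 in the nuclear rescue. Rbfox3 was at 12.4, 1.59, 1.59 and 1.53 FPKM in the same order. Because the samples are bulk cultures, fewer cells of a type and less RNA per cell cannot be told apart.

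The culture held more than neurons. The summed level of 9 measured neuron markers lay between 1283 and 1333 FPKM in the 4 groups, with Gad2 and the targeted Rbfox3 lower in the knockdown by the authors' test. Taken gene by gene, 7 of the 9 had a log2 ratio of knockdown to control below 0 and 2 above. The median of the 9 was -0.24, against 0.03 over genes of at least 1 FPKM, so the sum hides a lower level of most of these markers. The 8 astrocyte markers summed to between 1421 and 1575 FPKM, with no call. The 9 measured microglia markers summed to 12.4 FPKM in the control and to between 7.09 and 9.21 in the other groups, and Csf1r, C1qa and C1qc of them fell in the knockdown. The 10 oligodendrocyte lineage markers summed to between 273 and 302 FPKM, with Mag and Mbp higher in the knockdown by the authors' test. The 9 measured vascular and fibroblast markers summed to 73.3 FPKM in the control, 95.8 in the knockdown, 82.5 in the cytoplasmic rescue and 79.3 in the nuclear rescue, and Kdr of them fell in the cytoplasmic rescue. No measured marker was at 0 in any group, and the part of these cells in the values below was not tested.

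By FPKM, which is per length, Hspa5 was highest in every group, followed by Atf4 and Asns, Xbp1, Ddit3 and Herpud1, Sesn2, Chac1 and Dnajb9, and Trib3. The order within the pairs Atf4 and Asns, Ddit3 and Herpud1, and Chac1 and Dnajb9 differed between groups.

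Of the transcription factors, Atf4 (mm9 chr15:80085614-80087971) encodes the one made when eIF2 is phosphorylated. Its level was 89.2 FPKM in the control, 121 in the knockdown, 114 in the cytoplasmic rescue and 111 in the nuclear rescue, so the control was the lowest group and the 3 groups with Rbfox siRNA lay together. The log2 ratio of knockdown to control was 0.44 (95% interval 0.16 to 0.72), a fold of 1.36. As a reference, 90 genes were taken as cytosolic ribosomal protein genes by symbol alone, Rpl or Rps followed by a digit. Other genes with such symbols were not removed. Relative to this set, whose median log2 ratio was 0.15 in this comparison, the ratio of Atf4 was 0.29. The authors' deposited table gave p = 0.00200 and q = 0.126, which missed the threshold of q below 0.05 used for a call. A log2 ratio of 0.49 would have been needed at its implied error, the error on the log2 scale that the authors' fold change and test statistic imply. Against the knockdown the log2 ratio of Atf4 was -0.08 in the cytoplasmic rescue and -0.12 in the nuclear rescue.

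Ddit3, which encodes CHOP, a factor that favours cell death after long stress, was flat at 29.6 FPKM in the control, 29.0 in the knockdown, 29.0 in the cytoplasmic rescue and 29.1 in the nuclear rescue. Its highest group was 1.02 times its lowest. Ddit3 shares its listed locus (mm9 chr10:126727849-126748842) with Mars, the methionyl-tRNA synthetase gene, at 28.8 to 32.3 FPKM, and without strand information the sharing of reads between them is uncertain. The implied error of Ddit3 was wide, and a log2 ratio of 1.04 would have been needed for a call. Xbp1, the substrate of IRE1, was at 51.0 FPKM in the control, 54.0 in the knockdown, 60.4 in the cytoplasmic rescue and 55.9 in the nuclear rescue. Its log2 ratio of cytoplasmic rescue to knockdown was 0.16, with p = 0.265 in the authors' deposited table.

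**Figure D1:**
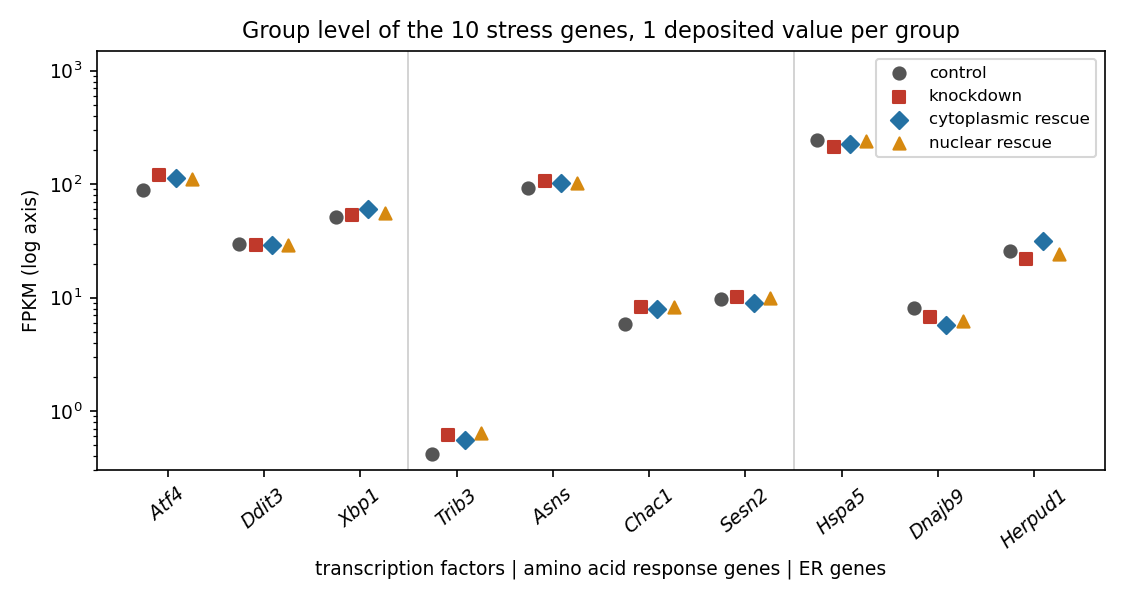
FPKM on a log axis of the 10 genes in the 4 groups, 1 deposited value per group and no error bars, ordered by role. Hspa5 lies highest at 213 to 246 FPKM and Trib3 lowest at 0.423 to 0.642, and the 4 groups of each gene lie close together.

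The genes of the amino acid response included Chac1, Trib3, Asns and Sesn2. Chac1 (mm9 chr2:119176978-119180062), which encodes an enzyme that degrades glutathione, was at 5.88 FPKM in the control, 8.27 in the knockdown, 8.02 in the cytoplasmic rescue and 8.23 in the nuclear rescue. As for Atf4, the control was lowest and the other groups lay together. The log2 ratio of knockdown to control was 0.49 (95% interval 0.17 to 0.81), a fold of 1.41. The authors' deposited table gave p = 0.00277 and q = 0.157 for it, so Chac1 did not pass either, and 0.57 would have been needed.

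Trib3, a pseudokinase gene induced by ATF4, was below 1 FPKM in every group, at 0.423 in the control, 0.613 in the knockdown, 0.559 in the cytoplasmic rescue and 0.642 in the nuclear rescue. Its log2 ratio of knockdown to control was 0.54, and the authors' deposited table gave p = 0.0661. On the log2(FPKM + 1) scale the ratio was 0.18. Asns, the asparagine synthetase gene, was at 91.9 FPKM in the control, 106 in the knockdown, 103 in the cytoplasmic rescue and 103 in the nuclear rescue. Its log2 ratio of knockdown to control was 0.21, with p = 0.148 in the authors' deposited table, and 0.05 relative to the ribosomal protein genes. Sesn2, a leucine sensor that restrains mTORC1, was at 9.72 FPKM in the control, 10.1 in the knockdown, 8.96 in the cytoplasmic rescue and 9.88 in the nuclear rescue, without a call in any comparison.

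The 3 genes of the ER itself had a lower value in the knockdown than in the control, and none of these differences passed. Hspa5, which encodes the ER chaperone BiP, was at 246 FPKM in the control, 213 in the knockdown, 227 in the cytoplasmic rescue and 238 in the nuclear rescue. The control was highest, and the log2 ratio of knockdown to control was -0.21, with p = 0.243 in the authors' deposited table. Dnajb9, an ER co-chaperone gene, was at 8.15 FPKM in the control, 6.82 in the knockdown, 5.77 in the cytoplasmic rescue and 6.24 in the nuclear rescue. Its log2 ratio of knockdown to control was -0.26, with p = 0.0944 in the authors' deposited table. The ratio of cytoplasmic rescue to control was -0.50 (95% interval -0.94 to -0.06) when taken through the knockdown from both tables. Such ratios were tested by a z test across all genes, with a call at an adjusted p below 0.05. Dnajb9 was not called by it, at an adjusted p of 0.969. No exact test could be run on such ratios, because the tables hold 1 value per group.

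Herpud1 (mm9 chr8:96910400-96919258) encodes an ER membrane protein that takes part in the degradation of misfolded ER proteins. It was at 25.8 FPKM in the control, 21.9 in the knockdown, 31.6 in the cytoplasmic rescue and 24.1 in the nuclear rescue. The knockdown was the lowest group and the cytoplasmic rescue the highest, at 122% of control against 85.0% in the knockdown and 93.3% in the nuclear rescue. By the z test the cytoplasmic rescue was not called above control, at a log2 ratio of 0.29 (95% interval -0.08 to 0.67). In the cytoplasmic rescue Herpud1 rose 1.44-fold over the knockdown, a log2 ratio of 0.53 (95% interval 0.25 to 0.80). The authors' deposited table gave p = 0.000184 and q = 0.0217 for this change. Recomputed from the deposited p-values over the cytoplasmic table alone, q was 0.0534, above the threshold. With genes of at least 1 FPKM only, it was 0.0441.

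The rise of Herpud1 in the cytoplasmic rescue was not shown to differ from the nuclear rescue, where its log2 ratio to knockdown was 0.13 with p = 0.334 in the authors' deposited table. The log2 ratio of cytoplasmic to nuclear rescue was 0.39 (95% interval 0.01 to 0.78). Across 15365 genes the z test on this difference called 4 genes, and Herpud1 was not among them. That test adds the error of the shared knockdown group from both tables. With the larger error alone it called 26 genes, again without Herpud1. The log2 ratio of knockdown to control was -0.23, with p = 0.0694 in the authors' deposited table, and -0.38 relative to the ribosomal protein genes. Over the 4 groups, the genes whose centred log2 level lay nearest to that of Herpud1 among 12539 genes were Ap1ar, Gm7102 and Shroom2. Their root mean square differences were 0.0126, 0.0152 and 0.0223. The implied error of Herpud1 against the knockdown was 0.14 in either rescue, larger than these differences, so this order is uncertain. Shared regulation was not tested.

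**Figure D2:**
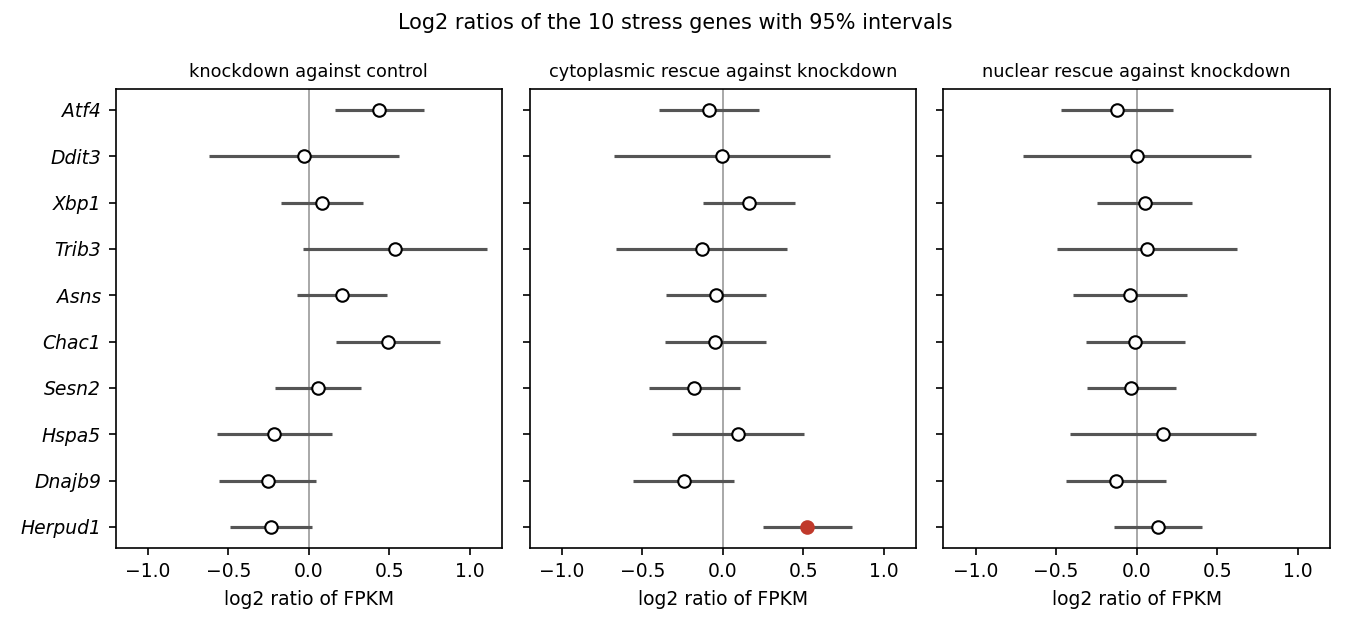
Log2 ratio of FPKM with its 95% interval for the 10 genes in the 3 deposited comparisons, filled red where the authors' q was below 0.05. Herpud1 in the cytoplasmic rescue, at 0.53, is the only filled point, while the intervals of Atf4 and Chac1 in the knockdown lie above 0 without a call.

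Promoter sequence is shown for the 4 members that show each kind of stress element: Hspa5 and Herpud1 for the ER elements, and Asns and Chac1 for the amino acid element. In a window from 250 bases before to 50 bases after the RefSeq start, all 10 members matched the RefSeq table of build GRCm38.p6. Both strands were searched for the ER stress response element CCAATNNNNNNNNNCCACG, the ER stress response element II ATTGGNCCACG and the C/EBP-ATF response element TGATGNAA, to which ATF4 with a C/EBP factor can bind. Capitals mark the matches.
Hspa5 (chr2:34771840-34772139, + strand): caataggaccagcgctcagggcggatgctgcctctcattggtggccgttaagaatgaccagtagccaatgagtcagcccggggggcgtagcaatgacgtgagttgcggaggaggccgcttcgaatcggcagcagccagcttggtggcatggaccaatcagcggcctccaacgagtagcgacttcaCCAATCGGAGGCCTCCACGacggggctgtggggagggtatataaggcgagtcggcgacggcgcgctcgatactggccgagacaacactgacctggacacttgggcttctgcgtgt
Herpud1 (chr8:94386179-94386478, + strand): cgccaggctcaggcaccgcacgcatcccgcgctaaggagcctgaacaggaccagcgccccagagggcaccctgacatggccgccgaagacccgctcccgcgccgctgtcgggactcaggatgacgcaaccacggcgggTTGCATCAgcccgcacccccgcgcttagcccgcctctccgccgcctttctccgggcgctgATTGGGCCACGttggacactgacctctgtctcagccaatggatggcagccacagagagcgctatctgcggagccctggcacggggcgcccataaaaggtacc
Asns (chr6:7693160-7693459, - strand): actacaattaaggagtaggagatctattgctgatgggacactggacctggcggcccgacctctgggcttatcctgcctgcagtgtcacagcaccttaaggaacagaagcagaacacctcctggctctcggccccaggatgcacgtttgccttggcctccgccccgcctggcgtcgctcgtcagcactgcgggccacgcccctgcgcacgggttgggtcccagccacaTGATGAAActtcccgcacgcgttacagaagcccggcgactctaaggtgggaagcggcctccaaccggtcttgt
Chac1 (chr2:119350992-119351291, + strand): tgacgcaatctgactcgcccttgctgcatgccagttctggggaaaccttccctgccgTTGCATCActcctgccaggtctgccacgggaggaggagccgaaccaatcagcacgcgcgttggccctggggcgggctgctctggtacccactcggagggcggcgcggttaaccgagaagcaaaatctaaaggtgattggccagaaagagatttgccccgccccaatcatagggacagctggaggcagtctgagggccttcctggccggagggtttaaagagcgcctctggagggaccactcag

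Hspa5 held the ER stress response element, which 0.119% of 32851 promoter windows held. Herpud1 held element II, found in 0.0365% of windows, and also a C/EBP-ATF element on the opposite strand. The C/EBP-ATF element occurred in Herpud1, Trib3, Asns and Chac1, that is 4 of 10 members, and in 3.97% of all windows. The promoters of Atf4, Ddit3, Xbp1, Dnajb9 and Sesn2 held none of these letters in the window. A match is a description of the sequence, and binding was not measured.

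**Figure D3:**
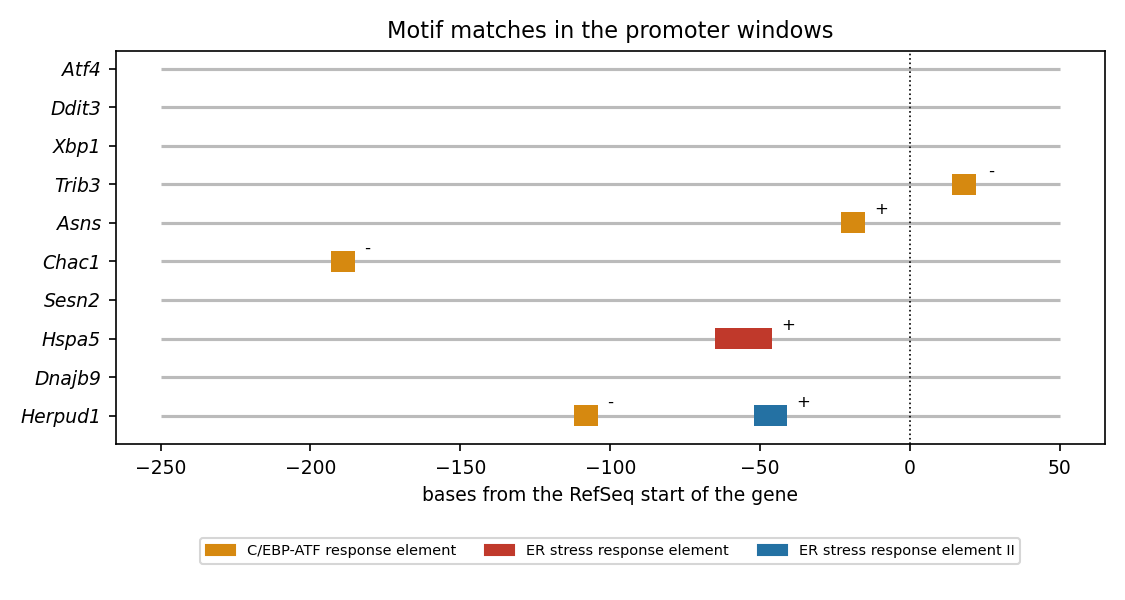
Position of motif matches in bases from the RefSeq start of each gene, with the strand beside each box and the searched window as a grey line. Herpud1 holds 2 kinds of element, Hspa5, Trib3, Asns and Chac1 hold 1 each, and the other 5 genes hold none.

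The Rbfox motif TGCATG was searched in the longest 3′ UTR of each gene, on the transcript strand, in GENCODE M21. Herpud1 held 2 matches in 622 bases, Hspa5 held 1 in 1434 and Dnajb9 held 1 in 1395, while the other 7 members held none. Among genes with a 3′ UTR within 20% of the same length, the share with at least 1 match was 17.2% of 2165 for Herpud1, 37.7% of 2823 for Hspa5 and 37.0% of 2822 for Dnajb9. Over 20987 genes it was 32.2%, beside 3 of 10 members. The sites of Herpud1, the member that passed, are shown with the motif in capitals.
Herpud1 site 1: cccagatgtgtgTGCATGtgtgctgtacat
Herpud1 site 2: catagacgtgtgTGCATGtgtgctctacat

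Counted over all members, the knockdown had 0 of 10 called against control, beside 2.35% of 15598 genes tested, and Atf4 and Chac1 had an unadjusted p below 0.05 beside 10.9% of genes. The cytoplasmic rescue had 1 of 10 called against the knockdown, beside 0.506% of genes, and 0.333% rose. Because the members were chosen with earlier results of these data known, this count cannot be read as an excess. Herpud1 alone had an unadjusted p below 0.05 there, beside 5.33% of genes. The nuclear rescue had 0 of 10 called and none with an unadjusted p below 0.05, beside 0.11% and 1.05% of 15489 genes. The median log2 ratio of the members was 0.07 in the knockdown, -0.04 in the cytoplasmic rescue and 0.00 in the nuclear rescue, against 0.03, -0.06 and -0.01 over genes of at least 1 FPKM. The comparisons share the knockdown group.

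By the z test 0 of 10 members were called between the rescues, beside 0.026% of 15365 genes, and Herpud1 alone had an unadjusted p below 0.05, beside 0.794%. Against control the cytoplasmic rescue had 0 of 10 called, beside 0.403% of genes, and Dnajb9 alone had an unadjusted p below 0.05, beside 3.93%. Against control the nuclear rescue had 0 of 10 called, beside 0.697% of genes, and Chac1 alone had an unadjusted p below 0.05, beside 4.96%.

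**Figure D4:**
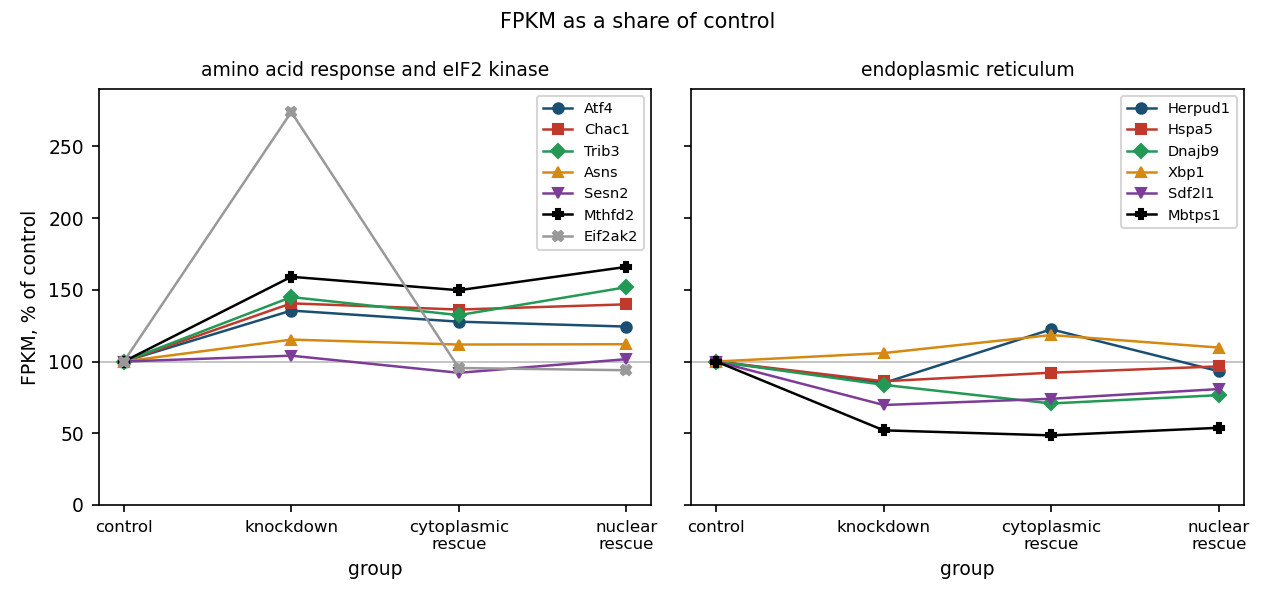
FPKM as a percent of control in the 4 groups for the amino acid response genes with Mthfd2 and Eif2ak2 and for the ER genes with Sdf2l1 and Mbtps1, 1 value per group and no error bars. Eif2ak2 is at 274% in the knockdown and near control in both rescues, while Mthfd2 stays above and Mbtps1 below control in all 3 groups.

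Around the members, 9 lists of related genes were measured, 134 genes in all, and 5 of them (3.73%) passed in the knockdown, beside 2.35% of all genes. In that comparison 57.3% of genes of at least 1 FPKM lay above 0. Of 28 measured genes of the wider ATF4 pathway, Mthfd2 alone rose in the knockdown and none fell. Mthfd2, a mitochondrial enzyme of one-carbon metabolism, was at 8.39 FPKM in the control, 13.3 in the knockdown, 12.6 in the cytoplasmic rescue and 13.9 in the nuclear rescue. Its log2 ratio of knockdown to control was 0.67, with q = 0.000668 in the authors' deposited table. By the z test the nuclear rescue was also called above control, at a log2 ratio of 0.73 (implied error 0.200). The cytoplasmic rescue was not called above control for Mthfd2. The amino acid transporter genes Slc7a1 and Slc7a5 had log2 ratios of 0.43 and 0.39 with q = 0.0740 and 0.148 in the authors' deposited table. Atf3, also of this list, had its largest change in the nuclear rescue against the knockdown, a log2 ratio of -0.40 without a call. In the knockdown 20 of the 28 lay above 0 and 8 below, down to -0.33. Above the median of all genes lay 18, and the median log2 ratio of the list was 0.13.

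Cytosolic aminoacyl-tRNA synthetases charge tRNAs, and some of their genes are targets of ATF4. Of 19 measured genes of this kind none passed in the knockdown. Above 0 lay 16, and above the median of all genes 15, with a median log2 ratio of 0.13. Cars had the largest log2 ratio, 0.35, with q = 0.386 in the authors' deposited table. The genes taken by symbol as cytosolic ribosomal protein genes had a median of 0.15 in the same comparison. Relative to the median of all genes, the medians of the ATF4-pathway list, the synthetase list and the members were 0.10, 0.11 and 0.04. Relative to the ribosomal protein genes, which lowers every log2 ratio by the same 0.15, they were -0.02, -0.02 and -0.08, so the sign of these medians depends on the reference.

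Of 18 measured ER chaperone and folding genes, Sdf2l1 alone fell in the knockdown, and 15 lay below 0 with a median log2 ratio of -0.08. Sdf2l1, a partner of ER chaperones, was at 20.6 FPKM in the control, 14.4 in the knockdown, 15.3 in the cytoplasmic rescue and 16.7 in the nuclear rescue, and its log2 ratio of -0.52 had q = 0.0349 in the authors' deposited table. Pdia4, a disulfide isomerase gene, was listed at 215 FPKM in the knockdown against 60.8 in the control with an implied error of 11.6, so its value carries no information. None of 15 measured genes of ER-associated degradation passed, with a median of -0.10.

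Of 10 genes of the sensors and transducers, Mbtps1 alone fell. Mbtps1, the site-1 protease that cleaves ATF6, was at 14.1 FPKM in the control, 7.32 in the knockdown, 6.82 in the cytoplasmic rescue and 7.57 in the nuclear rescue. Its log2 ratio of knockdown to control was -0.94 with q = 5.99e-09 in the authors' deposited table. By the z test it was also called below control in both rescues, at log2 ratios of -1.04 (implied error 0.204) in the cytoplasmic and -0.89 (implied error 0.200) in the nuclear rescue. The authors' test called neither rescue against the knockdown.

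Of 14 genes of the eIF2 kinases, phosphatase subunits and eIF2B, Eif2ak2 alone passed. It encodes PKR, the eIF2 kinase activated by viral RNA, and was at 7.06 FPKM in the control, 19.3 in the knockdown, 6.74 in the cytoplasmic rescue and 6.63 in the nuclear rescue. Its log2 ratios were 1.45 in the knockdown, and -1.52 and -1.54 in the cytoplasmic and nuclear rescues against the knockdown, all called by the authors' test. In the same 3 groups Atf4 and Chac1 were at 124% to 141% of control, and neither was called against control in any of them. A link of these levels to Eif2ak2 was not tested.

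Of 15 heat shock genes Hspb1, a small heat shock protein gene, alone fell in the knockdown, from 2.66 to 1.36 FPKM with q = 0.0199 in the authors' deposited table. None of 11 oxidative stress genes and none of 11 close relatives of the members passed in any deposited comparison. Apart from Eif2ak2, no gene of these 9 lists passed in either rescue against the knockdown. The splicing tables list exons that the authors called. They held 214, 150 and 318 cassette exons, of 202, 146 and 292 genes, for the knockdown, cytoplasmic rescue and nuclear rescue. None belonged to a member, but these genes are few beside the 15794 of the expression tables, so this says little about the members.

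**Figure D5:**
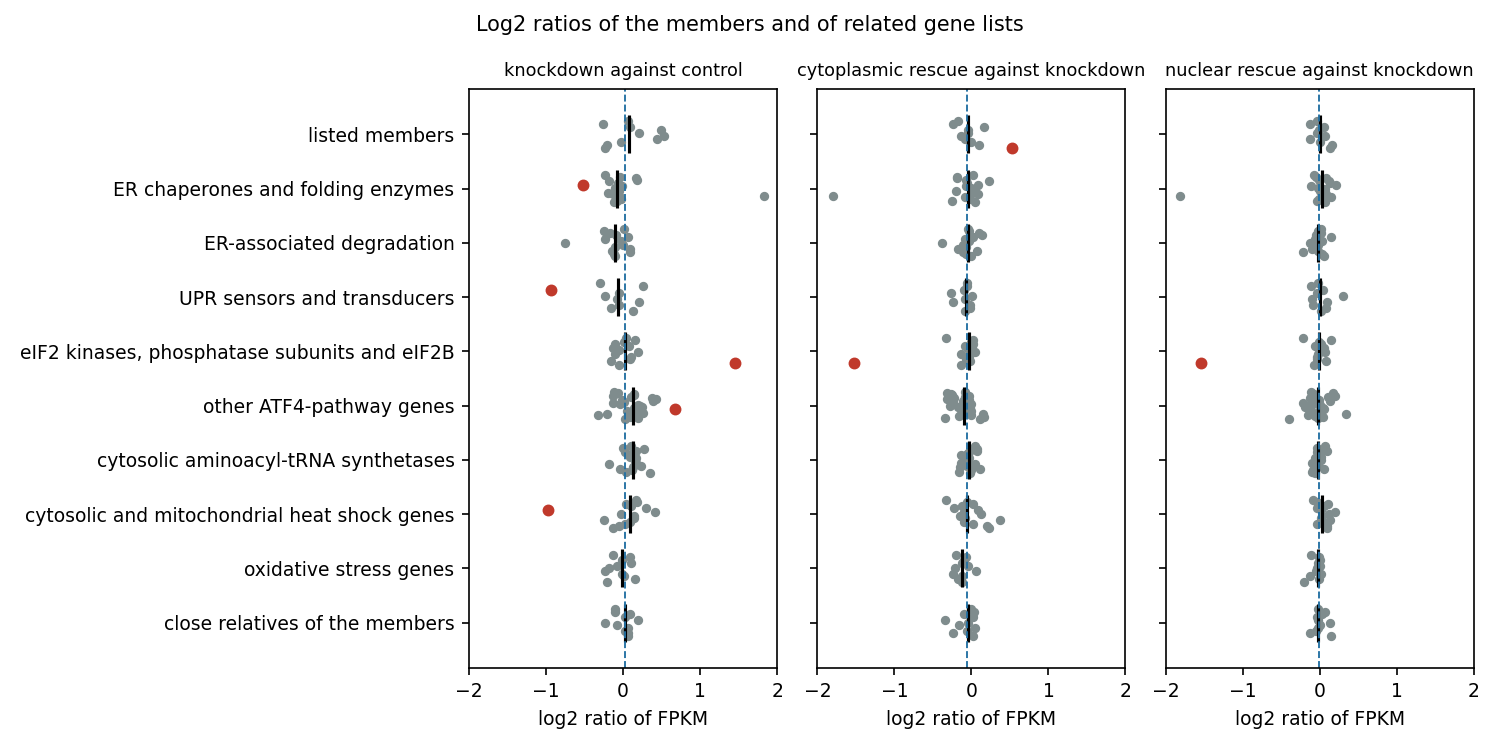
Log2 ratio of FPKM for each measured gene of the members and of 9 related lists in the 3 deposited comparisons, red where the authors' q was below 0.05, with a black bar at the median of the list and a dashed line at the median of all genes. Most genes lie near 0, and red points are Herpud1, Sdf2l1, Mbtps1, Eif2ak2, Mthfd2 and Hspb1.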

How the data were processed

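The 8 samples were grouped by their labels. Libraries were TruSeq after ribosomal RNA removal, unstranded, with paired 50 nt reads, per the labels' protocols. CASAVA, Cufflinks and the build mm9 are named in the submitters' processing notes (tool versions not given in the sources used here). Each expression table holds FPKM as deposited, 1 value per group, beside the authors' own log2 fold change, p-value and q-value. Depth per sample is unknown. The splicing tables, of which 54 value columns were not used here, hold a deposited inclusion fraction per group.

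A call was the authors' q below 0.05. The implied error is the absolute value of fold change over test statistic on the log2 scale, and the authors' p equalled the normal tail of that statistic. The rescues were compared with each other and with control by a z test on the deposited fold changes, with both squared errors added and Benjamini-Hochberg adjustment over all genes (scipy 1.17.1). The z test was tested on simulated data with normal errors of the implied size. That cannot show whether the implied errors are right for these data. The labels do not say whether the 2 samples per group were separate cultures, so p-values may measure technical spread. An unadjusted p below 0.05 was reached by 1.05% of genes in the nuclear rescue against the knockdown and 0.794% between the rescues. Both shares are below what no change at all would give. Errors and intervals there may be too wide, so the lack of a call is weak evidence. Ratios were also recomputed with pseudocounts of 0.1 and 1 and other scalings, and calls with other thresholds and adjustments.

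The genes named include all members and list genes that passed in any comparison. Other list genes came from up to 4 per list with the largest change, not all of which are named. Mars was named for the locus it shares with Ddit3. The members and lists were chosen with earlier results of these data known. Sequences came from RefSeq and GENCODE on GRCm38, with no conversion of coordinates. The result of a marker gene is not reported here.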

Additional observations from a re-analysis of the deposited data

How the results depend on the processing

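The tables hold 1 value per group, so leaving out each replicate was not run. No paired analysis was possible because the tables hold no value per library. The count of members called in the cytoplasmic rescue against the knockdown fell from 1 to 0 at q below 0.01 and to 0 when q was recomputed over that table alone, where Herpud1 had q = 0.0534. The counts in the other 5 comparisons stayed at 0 in every setting run. At q below 0.01 Sdf2l1 and Hspb1 also lost their call in the knockdown, and requiring 0.5 on the log2(FPKM + 1) scale removed that of Sdf2l1. At an adjusted p below 0.01 Mthfd2 was no longer called in the nuclear rescue against control. Over the 60 log2 ratios of members, setting the median of all genes to 0 changed 8 signs and setting that of ribosomal protein genes to 0 changed 10, each a shift common to all genes. The call of Herpud1 kept its sign under both, and list genes were not rescaled one by one. The ribosomal scaling also moved the knockdown log2 ratios of Xbp1 to -0.07 and of Sesn2 to -0.09. Without a value per library the spread between samples is seen only through the authors' errors.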
